A study of Mus musculus with 45 samples.

Results

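The data here are 10 of the 45 RNA sequencing libraries of the series, namely the M1 macrophages of *Famin* p.284R mice (5 libraries) set against those of *Famin* p.254V mice (5 libraries). They were chosen by their labels, as every library of these genotypes that had received both IFN-γ and LPS. Bone marrow of C57BL/6N mice aged 6 to 10 weeks was grown for 6 days with M-CSF, which yields macrophages in a dish and not tissue macrophages, and the cells then received 50 ng/mL IFN-γ with 20 ng/mL LPS for 24 h. Mice were bred from heterozygous parents and littermates were used. The same genotypes without stimulus (M0) and with IL-4 (M2), and the *Famin* p.254I genotype, are used below only to place the M1 values.

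*Famin*, listed as *Lacc1* in mouse annotation, encodes a macrophage enzyme that acts on purine nucleosides. The p.254I form is the common one, p.254V has been linked to risk of Crohn's disease and leprosy, and p.284R to inherited childhood arthritis and bowel inflammation. LPS signals through Toll-like receptor 4 to NF-κB, and together with IFN-γ it drives the genes of the M1 state, among them enzymes for nitric oxide and itaconate, chemokines, and the inhibitors that feed back on NF-κB itself. In whole cultures, fewer cells of a kind and less RNA per cell cannot be told apart.

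Total counts ranged from 17239009 to 36892515 in the 284R libraries (median 25017652) and from 22289698 to 31422737 in the 254V libraries (median 29177230), so that 1 CPM, a count scaled to library size, stood for 17.2 to 36.9 reads. The summed level of 11 macrophage genes, *Adgre1*, *Csf1r* and *Lyz2* among them, was 15400 to 18200 CPM in 284R and 14400 to 17300 CPM in 254V. The M1 label was checked on *Acod1*, which was at 127 to 383 CPM in 254V M1 libraries and 1.43 to 3.70 CPM in 254V M0 libraries. *Clec4e* and *Nfkbia* did not mark M1 in the same way, since in 254V *Clec4e* was at 8.38 to 20.1 CPM in M1 and 11.3 to 25.5 CPM in M0, and *Nfkbia* at 44.4 to 54.9 CPM and 49.0 to 61.8 CPM. The 284R libraries were not alike. On the first principal component of the 10 libraries, which held 48.5% of the variance, replicates 3, 4 and 5 of 284R lay at 14.6, 20.9 and 18.0, replicates 1 and 2 at -3.71 and -19.4, and the 254V libraries between -26.8 and 1.86. The labels number the libraries but do not say that each came from its own animal, so p-values measure the spread between these samples. What sets replicates 3 to 5 of 284R apart was not tested, and all 5 libraries were kept as the labels give them.

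In 284R M1 macrophages 10 genes rose over 254V and none fell. They were *Acsl1*, *Sod2*, *Nfkbia*, *Plpp1*, *Nos2*, *Clec4e*, *M6pr*, *Nrp2*, *Gpr84* and *Tma16*, with mean CPM 1.21 to 4.77 times that of 254V. Genes were tested with edgeR by quasi-likelihood, p-values were adjusted by Benjamini and Hochberg over 12905 genes, and a call was an adjusted p under 0.05, so that 0.0775% of genes were called. Before adjustment, 799 genes had p under 0.05 (6.19%), limma-voom called 0, and DESeq2 called 21, 2 of them lower. In none of the 10 did the 2 groups separate fully. Over all genes, 80 (0.62%) had no overlap between the 5 libraries of each genotype. Random labels would separate a gene fully with probability 0.00794, so that share is no sign of a difference. In the 10 genes 284R replicates 3, 4 and 5 stood above every 254V library and replicate 1 stood above every 254V library for *Nos2* alone. The count rested on single libraries. It was 66 without 284R replicate 1, 67 without replicate 2, 1 without replicate 3 and 0 without replicate 4 or 5, and it was 0, 1, 3 and 1 without 254V replicates 1, 2, 3 and 4.

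Libraries with the same replicate number deviated together in M1, so the number was also fitted as a block. With that replicate block 325 genes were called (2.52%), 192 higher (1.49%) and 133 lower (1.03%) in 284R, and all 10 genes above were among them. Most of the blocked changes were small. Their median log2 fold change was 0.38 for the genes that rose and -0.29 for those that fell, and 29 higher and 4 lower genes passed 1 on the log2 scale. The blocked count was 633 without 284R replicate 1, 146, 59 and 122 without 284R replicates 3, 4 and 5, and 91, 99 and 136 without 254V replicates 3, 4 and 5. A call made only with the block is named as such in what follows. Counts of such calls within a list stand beside 2.52% of all genes. Genes named for such a call alone were chosen after their values were seen, as were *Arg1*, *Il1b*, *Cxcl9*, *Mmp14*, *Nr1h3* and *Txnip*.

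**Figure D1:**
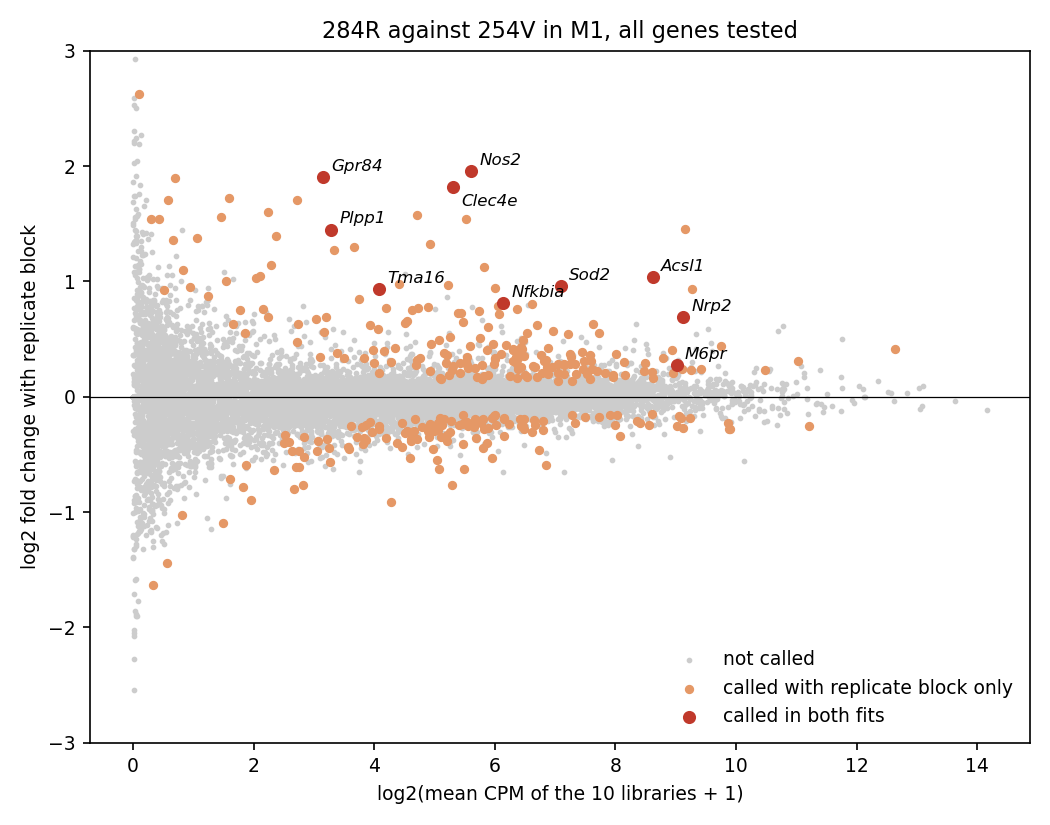
Each point is 1 of 12905 genes, with the log2 of its mean CPM plus 1 over the 10 M1 libraries on the x axis and its log2 fold change from 254V to 284R, fitted with the replicate block, on the y axis (3 genes lie beyond the axis). The 10 genes called in both fits are labelled and all lie above 0, while the genes called with the block alone lie on both sides.

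*Acod1*, the enzyme that makes itaconate from cis-aconitate, had 255, 234, 1186, 1343 and 1325 CPM in 284R replicates 1 to 5 and 206, 127, 323, 319 and 383 CPM in 254V. Replicates 3, 4 and 5 of 284R thus lay above all 254V libraries and replicates 1 and 2 inside their range. *Acod1* (ENSMUSG00000022126, chromosome 14 from 103046977 to 103056573, GRCm38) had a log2 fold change of 1.68 (SE 0.39), which did not pass (edgeR quasi-likelihood adjusted p = 0.0800). With the replicate block it rose by 1.45 (SE 0.23, edgeR adjusted p = 0.00111). *Nos2*, the inducible nitric oxide synthase (ENSMUSG00000020826, chromosome 11 from 78920787 to 78960254), had 25.6, 8.60, 81.5, 149 and 131 CPM in 284R and 19.2, 4.92, 17.8, 19.9 and 20.9 CPM in 254V. Replicate 2 was the lowest library of both genotypes, and the groups overlapped through it alone. *Nos2* rose by a log2 fold change of 2.25 (SE 0.45, edgeR quasi-likelihood adjusted p = 0.0327). Of 11 tested genes for itaconate, arginine and nitric oxide, *Nos2* was called, 8 lay above 0 and the median log2 fold change was 0.32, beside 50.1% above 0 and a median of 0.00011 over all genes. With the block 3 were called, *Nos2*, *Acod1* and *Gch1*, all higher, beside 1.49% of all genes called higher with it. *Gch1*, which makes the cofactor of nitric oxide synthase, was at 29.2 ± 6.71 CPM in 284R and 23.0 ± 4.30 in 254V (SD, n = 5 each). *Arg1*, the arginase that competes for the same substrate, was at 0.633 ± 0.264 and 0.628 ± 0.0984 CPM (log2 fold change 0.01, SE 1.11).

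*Acsl1*, which activates long-chain fatty acids to acyl-CoA (ENSMUSG00000018796, chromosome 8 from 46471037 to 46536051), had 200, 332, 642, 716 and 826 CPM in 284R and 190, 256, 255, 243 and 272 CPM in 254V. Replicates 2 to 5 of 284R lay above every 254V library. It rose by a log2 fold change of 1.16 (SE 0.19), with the smallest p of all genes (edgeR quasi-likelihood adjusted p = 0.00482). *Acsl1* was the 1 gene called of 18 for fatty acid synthesis and use, with or without the block, and the median of these 18 was -0.014. *Sod2*, the mitochondrial superoxide dismutase (ENSMUSG00000006818, chromosome 17 from 13006846 to 13040063), had 85.0, 92.0, 246, 234 and 260 CPM in 284R and 85.0, 69.2, 86.5, 92.3 and 106 CPM in 254V. Here replicates 1 and 2 of 284R lay within the 254V range. It rose by 1.06 (SE 0.19, edgeR adjusted p = 0.0134). Among 18 NRF2 and antioxidant genes, *Sod2* was called, 16 lay above 0 and the median was 0.32. With the block *Prdx5*, a peroxiredoxin, *Nfe2l2*, which encodes NRF2, and *Srxn1*, the sulfiredoxin, were also called, with blocked log2 fold changes of 0.44, 0.20 and 0.35.

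*Nfkbia* encodes IκBα, which holds NF-κB in the cytoplasm and is itself induced by NF-κB. It had 43.1, 61.3, 126, 104 and 116 CPM in 284R and 44.4, 49.7, 54.9, 49.7 and 45.5 CPM in 254V. Replicate 1 of 284R was below all 254V libraries and replicates 2 to 5 above them. *Nfkbia* (ENSMUSG00000021025, chromosome 12 from 55489410 to 55492647) rose by a log2 fold change of 0.88 (SE 0.16, edgeR quasi-likelihood adjusted p = 0.0134). Of 17 genes for NF-κB subunits and feedback inhibitors it was the 1 called, 16 lay above 0 and the median was 0.28. With the block 6 were called, all higher, beside 1.49% of all genes called higher with it. *Relb* and *Nfkb2*, subunits of the alternative NF-κB pathway, had blocked log2 fold changes of 0.65 and 0.49. *Nfkbie*, which encodes IκBε, had 0.97, *Traf1*, a TNF receptor adaptor, 0.73 and *Tnip3*, an A20-binding protein, 0.42. Summed over the 17 genes, 284R replicates 3, 4 and 5 were at 1539, 1467 and 1508 CPM, replicates 1 and 2 at 891 and 1019, and the 254V libraries between 911 and 1110.

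The stretch before the start of 4 of these genes is shown because NF-κB is the pathway that LPS opens and the genes differ in whether a κB motif lies there. A κB motif here is GGGA or GGGG, then any 4 bases, then CC. Both forms were searched on both strands, where 1 stretch can match both forms, in the 250 bases before the RefSeq start (GRCm38.p6), and matches are in capitals. Each sequence is given 5′ to 3′ on the strand of its gene and stops before the first annotated base of the gene.
Nfkbia: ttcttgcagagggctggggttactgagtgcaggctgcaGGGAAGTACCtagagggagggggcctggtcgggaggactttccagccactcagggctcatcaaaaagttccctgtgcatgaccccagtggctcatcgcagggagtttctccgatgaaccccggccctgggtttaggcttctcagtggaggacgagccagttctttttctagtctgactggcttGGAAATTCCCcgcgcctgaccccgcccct
Acod1: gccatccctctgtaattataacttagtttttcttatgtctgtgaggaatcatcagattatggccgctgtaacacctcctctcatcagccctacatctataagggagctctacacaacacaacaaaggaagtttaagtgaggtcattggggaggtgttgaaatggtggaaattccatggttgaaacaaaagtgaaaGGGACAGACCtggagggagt
Acsl1: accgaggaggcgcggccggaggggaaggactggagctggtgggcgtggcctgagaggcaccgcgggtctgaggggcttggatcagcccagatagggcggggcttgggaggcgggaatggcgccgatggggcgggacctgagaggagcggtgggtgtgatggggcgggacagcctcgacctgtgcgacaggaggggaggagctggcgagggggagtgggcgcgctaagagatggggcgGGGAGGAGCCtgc
Clec4e: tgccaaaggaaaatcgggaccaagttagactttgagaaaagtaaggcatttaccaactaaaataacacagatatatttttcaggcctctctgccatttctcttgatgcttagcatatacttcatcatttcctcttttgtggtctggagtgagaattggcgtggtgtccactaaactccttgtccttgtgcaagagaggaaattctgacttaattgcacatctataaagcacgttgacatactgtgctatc
These are chr12:55492648-55492897 on the minus strand, chr14:103046762-103046976 and chr8:46470787-46471036 on the plus strand, and chr6:123289872-123290121 on the minus strand. *Nfkbia* held 2 matches, beginning 212 and 29 bases before the start, *Acod1* 1 match 55 bases before it and the first promoter of *Acsl1* 1 match 13 bases before it, while *Clec4e* held none. RefSeq gave 9 windows for 8 of the 11 genes (*Acod1* and the 10 called). A κB match lay in 5 of the 9 windows, those of *Sod2* and *Nrp2* being the others. The second *Acsl1* window held none. Of all 32851 windows, 28.4% held 1 or the other (17.6% the GGGA form and 16.3% the GGGG form). A match is a run of letters and was not shown to be bound.

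*Clec4e* encodes Mincle, a C-type lectin that senses mycobacterial glycolipids and dead cells. It had 8.67, 19.7, 103, 75.1 and 107 CPM in 284R and 8.38, 9.99, 18.7, 15.3 and 20.1 CPM in 254V. Replicates 3, 4 and 5 of 284R lay above every 254V library, and replicate 2 of 284R, though the higher of its number, lay within the 254V range. *Clec4e* (ENSMUSG00000030142, chromosome 6 from 123281789 to 123289870) rose by a log2 fold change of 2.10 (SE 0.43, edgeR quasi-likelihood adjusted p = 0.0335). The C-type lectins did not move as a family. Of 15 tested, 6 lay above 0 and the median was -0.073. With the block *Clec4d*, the partner receptor of Mincle, rose with *Clec4e* (0.79), whereas *Clec10a* and *Clec4b1* fell by 0.91 and 0.77 on the log2 scale. *Clec10a*, a galactose lectin of alternatively activated macrophages, had 16.9, 20.7, 14.1, 7.27 and 6.32 CPM in 284R and 27.2, 33.5, 21.3, 21.0 and 16.0 CPM in 254V, where 284R replicates 3, 4 and 5 lay below all of 254V. *Mrc1*, the mannose receptor, was at 111 ± 44.5 and 170 ± 36.8 CPM (SD, n = 5 each) and passed neither fit (log2 fold change -0.62, SE 0.22).

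*Gpr84*, a receptor for medium-chain fatty acids (ENSMUSG00000063234, chromosome 15 from 103308235 to 103310612), had 2.85, 2.99, 19.2, 19.8 and 18.8 CPM in 284R and 1.41, 1.63, 3.96, 3.10 and 4.86 CPM in 254V. Replicates 1 and 2 were the low libraries of both genotypes. It rose by a log2 fold change of 2.09 (SE 0.45, edgeR quasi-likelihood adjusted p = 0.0483). Of 16 receptors for formyl peptides, metabolites and lipids, *Gpr84* was called, 15 lay above 0 and the median was 0.37. With the block 8 of the 16 were called, all higher, beside 1.49% of all genes called higher with it. The formyl peptide receptors *Fpr1* and *Fpr2* had blocked log2 fold changes of 1.70 and 1.33, *Gpr55*, a lysophospholipid receptor, 1.27, *Adora2a*, an adenosine receptor, 1.36 and *Hrh2*, a histamine receptor, 0.73. *Fpr2* was at 16.1, 8.94, 84.2, 55.6 and 51.6 CPM in 284R and at 15.5, 3.66, 21.97, 16.8 and 21.0 CPM in 254V. *Adora2a* stayed low throughout, at 0.208 to 1.76 CPM in 284R and 0.183 to 0.486 CPM in 254V. *Ptger4*, a prostaglandin receptor, and *Ccrl2*, a chemerin-binding receptor, made up the 8 with 0.40 and 0.30.

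The other 4 genes called belong to none of the pathways above. *Plpp1*, a lipid phosphate phosphatase (ENSMUSG00000021759, chromosome 13 from 112800792 to 112867894), had 3.72, 5.69, 16.7, 19.96 and 19.6 CPM in 284R and 2.997 to 5.52 CPM in 254V, a log2 fold change of 1.60 (SE 0.30, edgeR quasi-likelihood adjusted p = 0.0150). *Nrp2*, a receptor for semaphorins and VEGF (ENSMUSG00000025969, chromosome 1 from 62703285 to 62818695), had 412, 470, 753, 947 and 913 CPM in 284R and 362 to 471 CPM in 254V, a change of 0.75 (SE 0.16, edgeR adjusted p = 0.0413). *M6pr*, the cation-dependent mannose 6-phosphate receptor that carries enzymes to lysosomes (ENSMUSG00000007458, chromosome 6 from 122308720 to 122317680), changed least. It had 446, 532, 625, 626 and 601 CPM in 284R against 448 to 480 CPM in 254V, a rise of 0.28 (SE 0.06, edgeR adjusted p = 0.0335), and replicates 2 to 5 of 284R lay above every 254V library. *Tma16*, named for an association with translation machinery (ENSMUSG00000025591, chromosome 8 from 66473118 to 66486530), had 11.3, 9.35, 27.9, 28.7 and 29.6 CPM in 284R and 8.40 to 13.6 CPM in 254V, and lay just inside the threshold (1.02, SE 0.22, edgeR adjusted p = 0.0497). Among the 10 called genes, *Acsl1*, *Plpp1*, *Gpr84* and *Nrp2* are overlapped by an annotated gene on the opposite strand, *Mtrex* in the case of *Plpp1*, and whether counting used the strand is not stated.

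**Figure D2:**
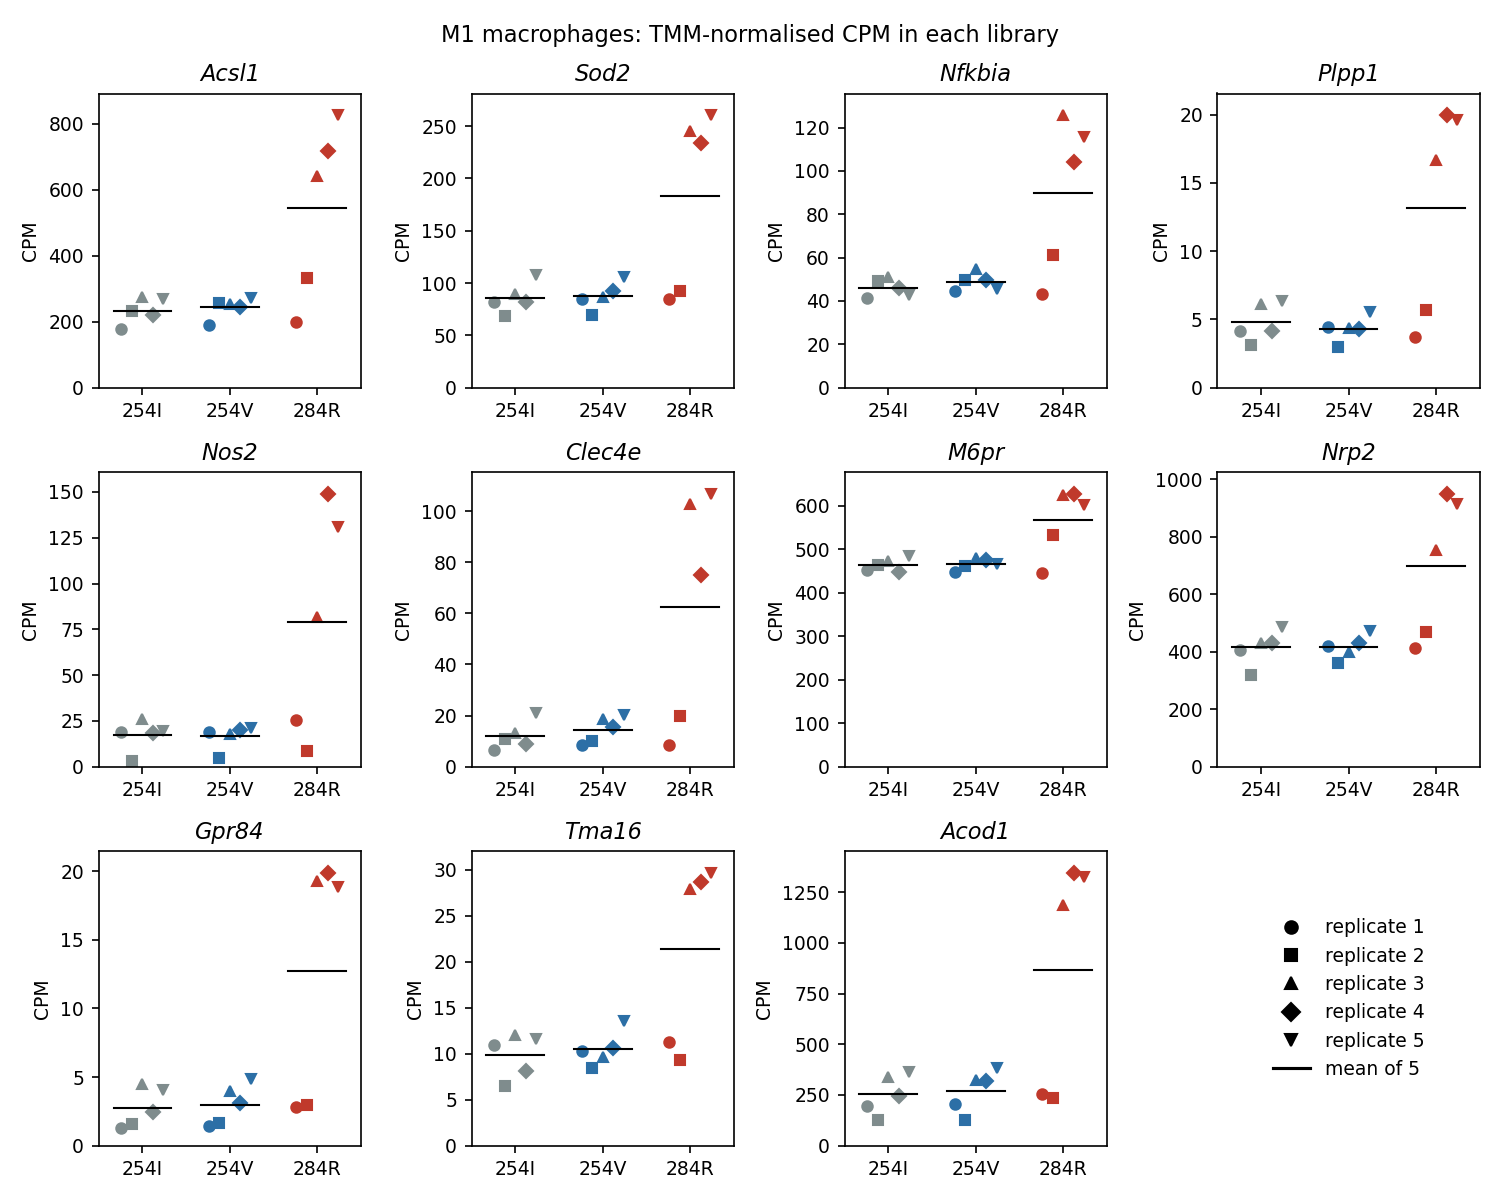
CPM of the 10 called genes and *Acod1* in the 15 M1 libraries, with 1 panel per gene, genotypes on the x axis, a marker shape for each replicate number and a bar for the mean of 5. In every panel the triangle, diamond and inverted triangle of 284R (replicates 3, 4 and 5) stand above all 254V and 254I libraries, and the circle (replicate 1) stands among them or just beside them.

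Single genes were also tested without the count model and without regard to replicate number. For 21 genes the 5 libraries of each genotype were compared by two-sided exact permutation tests of mean log2(CPM + 1), in which the smallest p possible is 0.00794. The exact p was 0.103 for *Acod1*, 0.0635 for *Nfkbia*, 0.0873 for *Clec4e*, 0.0556 for *Acsl1* and 0.0476 for *M6pr*, and after Benjamini-Hochberg adjustment over the 21 no gene of these exact tests was under 0.122.

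Among the chemokines, *Cxcl11*, *Cxcl10* and *Cxcl2* were called with the block alone. *Cxcl11*, a chemokine gene induced by interferon, had 7.72, 8.02, 69.2, 56.8 and 56.5 CPM in 284R and 7.59, 6.29, 15.4, 12.3 and 11.2 CPM in 254V. Its log2 fold change was 1.91 (SE 0.42) without the block (adjusted p = 0.0605) and 1.57 (SE 0.34) with it (edgeR quasi-likelihood adjusted p = 0.0254). *Cxcl10*, which encodes a ligand of CXCR3, had 343, 445, 1220, 981 and 1163 CPM in 284R against 353 to 489 CPM in 254V. *Art3* overlaps *Cxcl10* and *Cxcl11* on the opposite strand. *Cxcl9*, more abundant than *Cxcl10* and *Cxcl11*, was at 4063 ± 1494 and 2846 ± 874 CPM (SD, n = 5 each) and passed neither fit. Of 9 CXC chemokines tested, 8 lay above 0 with a median of 0.64, beside 0.087 in M0 and 0.78 in M2. The CC chemokines had a median of 0.037 over 12 genes with 6 above 0 and no call in either fit. *Ccl2* and *Ccl7*, monocyte attractants, had the smallest p of these, with log2 fold changes of 0.55 (SE 0.40) and 0.55 (SE 0.41).

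Cytokines split by gene. *Tnf* had 44.02, 44.6, 85.2, 129 and 115 CPM in 284R and 36.4, 31.5, 52.9, 60.6 and 59.3 CPM in 254V, and was called with the block alone (0.72, SE 0.17). *Il1a* was among the 0.62% of genes with no overlap, at 0.633 to 1.28 CPM in 284R and 0.274 to 0.625 CPM in 254V. It was also called with the block alone (1.10, SE 0.28). *Il1b*, its close relative, was at 5.24 ± 2.44 and 5.23 ± 2.59 CPM (log2 fold change 0.00, SE 0.45). Over 11 tested cytokine genes the median was 0.017.

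Among interferon-induced genes *Cd40* and *Ubd* were called with the block alone. *Cd40*, the receptor for the T cell ligand CD40L, had 59.6, 89.7, 150, 152 and 180 CPM in 284R and 54.7 to 78.6 CPM in 254V, a log2 fold change of 0.87 (SE 0.20, edgeR adjusted p = 0.0605 without the block). *Ubd*, a ubiquitin-like modifier, had 5.03, 2.70, 26.7, 21.4 and 31.4 CPM against 3.70 to 8.33 CPM. Antiviral interferon-stimulated genes lay above 0 in all 20 of 20 cases with a median of 0.25, and neither fit called any, where *Oasl1* had 0.65 (SE 0.40) and *Ifih1* 0.32 (SE 0.21). Their median was 0.25 in M0 and 0.58 in M2 as well. Class II antigen presentation genes lay above 0 in 3 of 11 cases (median -0.10) with no call.

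Signalling and effector lists held no gene called without the block and several with it, beside 2.52% of all genes called with it. With the block *Traf3*, *Irak2* and *Tlr2* were called of 22 Toll-like receptor genes (blocked 0.29, 0.25 and 0.44; list median 0.012), and *Casp4*, the sensor of cytosolic LPS, *Ripk2*, the NOD2 kinase, and *Nlrc4* of 14 inflammasome and NOD2 genes (0.29, 0.28 and 0.28; median 0.14). Of 7 NADPH oxidase genes *Hvcn1*, the proton channel that balances oxidase charge, had 19.9, 32.3, 43.0, 39.1 and 47.9 CPM in 284R and 17.2 to 26.2 CPM in 254V, a blocked change of 0.78 (SE 0.15), and *Cybb*, the catalytic subunit, a blocked change of 0.31 (SE 0.07). *Ptgs2* and *Ptges*, which act in turn in prostaglandin E2 synthesis, rose with the block by 0.76 and 0.63, *Pla2g4a*, the phospholipase that frees arachidonic acid, by 0.28, and *Ptgs1*, the constitutive cyclooxygenase, fell by 0.39. Over 14 eicosanoid genes the median was -0.15. Glycolysis genes lay above 0 in 19 of 20 cases with a median of 0.14, and *Gpd2*, the mitochondrial glycerol phosphate dehydrogenase, was the 1 called with the block (0.34, SE 0.08). No gene was called in either fit among 21 of the TCA cycle (median -0.0090), 21 sodium-proton exchangers and V-ATPase subunits (0.025), 16 survival genes and MAPK phosphatases (0.026), 14 ATF4 and stress genes (0.14), 9 immediate early and heat shock genes (-0.027) or 15 proliferation genes (-0.063).

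Purine genes were examined because FAMIN acts on purine nucleosides. Of 19 tested, none was called without the block. With it 3 were lower, *Ada*, *Adk* and *Ak1*, beside 1.03% of all genes, and 1 was higher, beside 1.49%. *Ada*, adenosine deaminase, had 25.0, 30.0, 19.2, 19.6 and 17.2 CPM in 284R and 29.7, 32.6, 29.0, 25.1 and 24.4 CPM in 254V, a blocked log2 fold change of -0.36 (SE 0.09). *Adk*, adenosine kinase, had 32.7, 38.1, 29.3, 29.0 and 26.3 CPM in 284R and 36.1 to 37.7 CPM in 254V, a blocked change of -0.25 (SE 0.06). *Ak1*, an adenylate kinase, had a blocked change of -0.64 (SE 0.18). The median of the 19 genes was -0.028, and 7 of them lay above 0.

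**Figure D3:**
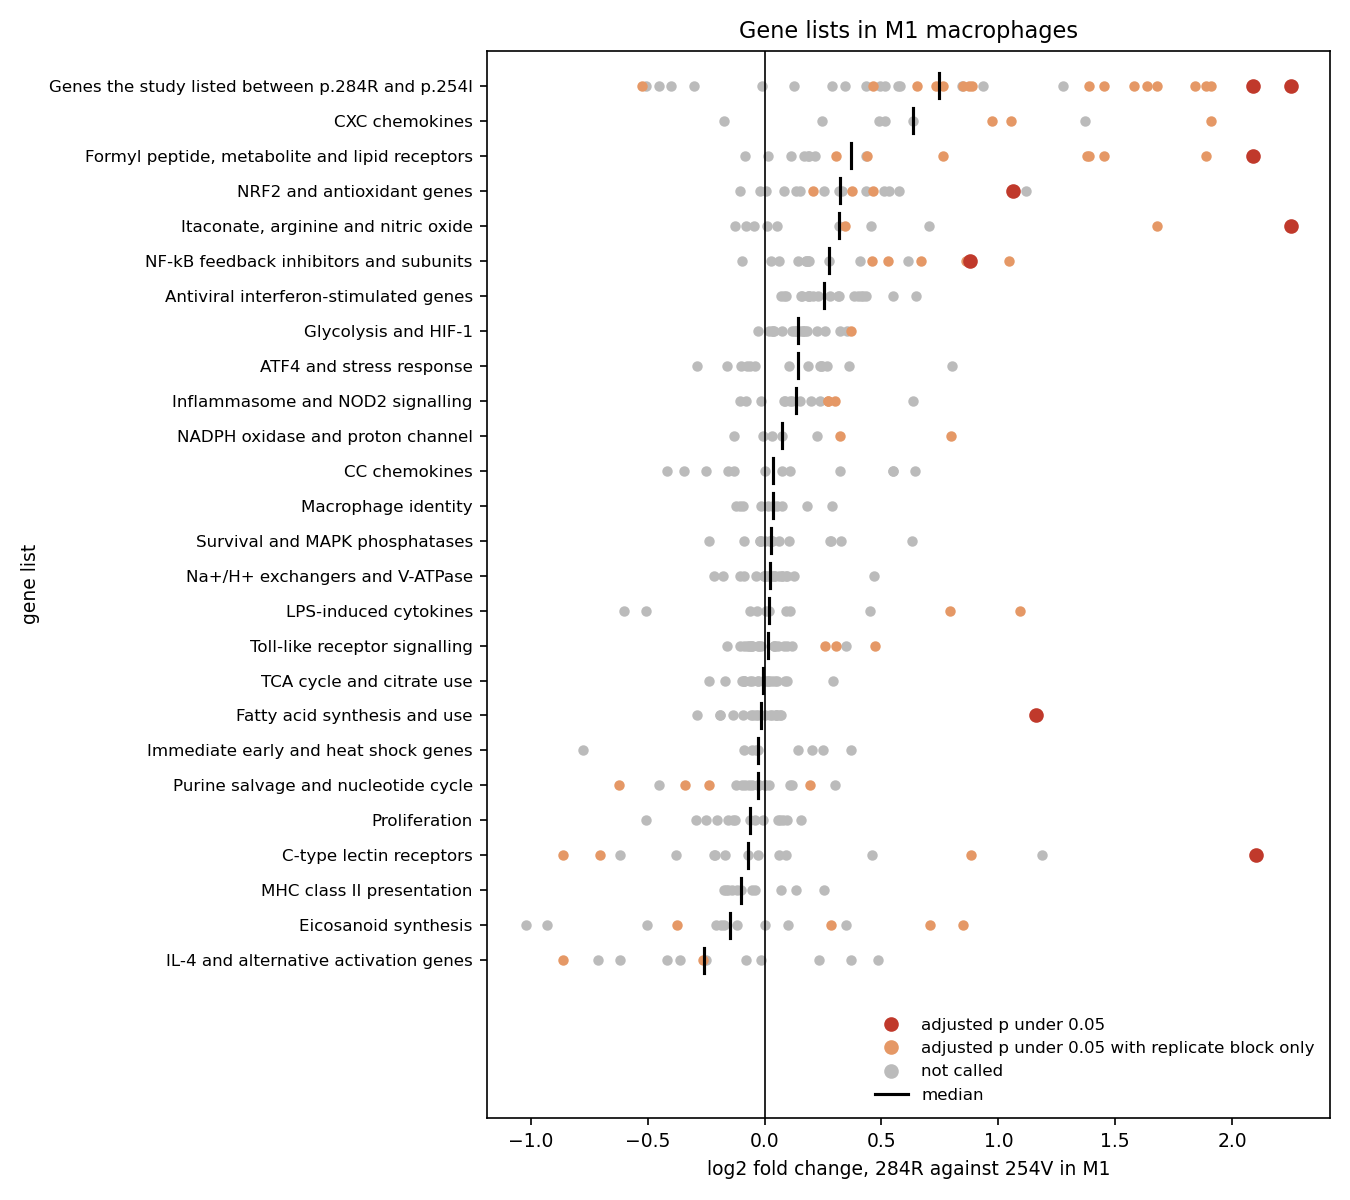
Log2 fold change of each tested gene (points) in 26 gene lists, ordered by the list's median (black bar), for 284R against 254V in M1 without the block. Red points, which are *Acsl1*, *Sod2*, *Nfkbia*, *Nos2*, *Clec4e* and *Gpr84*, were called without the block and orange points with it alone, and *Nos2* and *Gpr84* stand a second time in the list the study chose.

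No gene fell without the block. The 5 lower genes with the smallest p were *Rgs10*, *Mef2c*, *Prkab2*, *Gm9025* and *Lrrc39*. *Rgs10*, a regulator of G protein signalling in myeloid cells, had 44.4, 55.3, 42.0, 39.3 and 41.6 CPM in 284R and 56.8, 63.0, 57.9, 54.9 and 51.2 CPM in 254V, with 4 of the 284R libraries below all of 254V. Its log2 fold change was -0.35 (SE 0.08) without the block (adjusted p = 0.0605) and -0.36 (SE 0.05) with it (edgeR quasi-likelihood adjusted p = 0.000128). *Mef2c*, a transcription factor, was at 61.9 ± 10.6 and 78.3 ± 7.89 CPM (SD, n = 5 each), and *Prkab2*, a subunit of AMP-activated kinase, at 9.20 ± 1.57 and 12.6 ± 2.59 CPM, and both fell with the block, as did *Gm9025*. *Lrrc39* did not (edgeR adjusted p = 0.0558 with the block). *Txnip*, the thioredoxin-interacting protein, was the most abundant of the 5 lower genes with the smallest blocked p, at 966, 1047, 798, 697 and 753 CPM in 284R and 1196, 1202, 964, 915 and 874 CPM in 254V, a blocked change of -0.28 (SE 0.05). Of 12 IL-4 genes 3 lay above 0 with a median of -0.26, and *Clec10a* and *Il4ra*, the IL-4 receptor chain, fell with the block.

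Differences were also taken within each replicate number. For *Nfkbia* it was -0.040, 0.30, 1.18, 1.05 and 1.33 on the log2(CPM + 1) scale for numbers 1 to 5, and for *Nos2* 0.40, 0.70, 2.13, 2.84 and 2.59. Over the 192 genes that rose with the block, the median difference was 0.078 for number 1, 0.24 for number 2 and 0.47, 0.52 and 0.48 for numbers 3, 4 and 5. Over the 133 that fell it was -0.17, -0.20, -0.33, -0.38 and -0.34. In both sets numbers 1 and 2 differed least. All 5 numbers were lower in 284R in 8.69% of all tested genes and all 5 higher in 7.39%. *Nr1h3*, which encodes the oxysterol receptor LXRα, had the smallest p with the block. It had 16.98, 7.52, 33.4, 39.8 and 39.2 CPM in 284R and 9.72, 5.03, 16.9, 16.3 and 18.3 CPM in 254V, so that the groups overlapped but each 284R library exceeded the 254V library of its number. Its log2 fold change was 1.05 without the block (adjusted p = 0.363) and 0.98 (SE 0.09) with it (edgeR quasi-likelihood adjusted p = 1.60e-07), and *Gm13783* and *Gm23390* overlap it. *Mmp14*, a membrane-bound matrix protease, had 15.04, 20.7, 89.4, 98.5 and 125 CPM against 13.8, 11.6, 27.8, 17.9 and 31.2 CPM, a blocked change of 1.54 (SE 0.25).

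**Figure D4:**
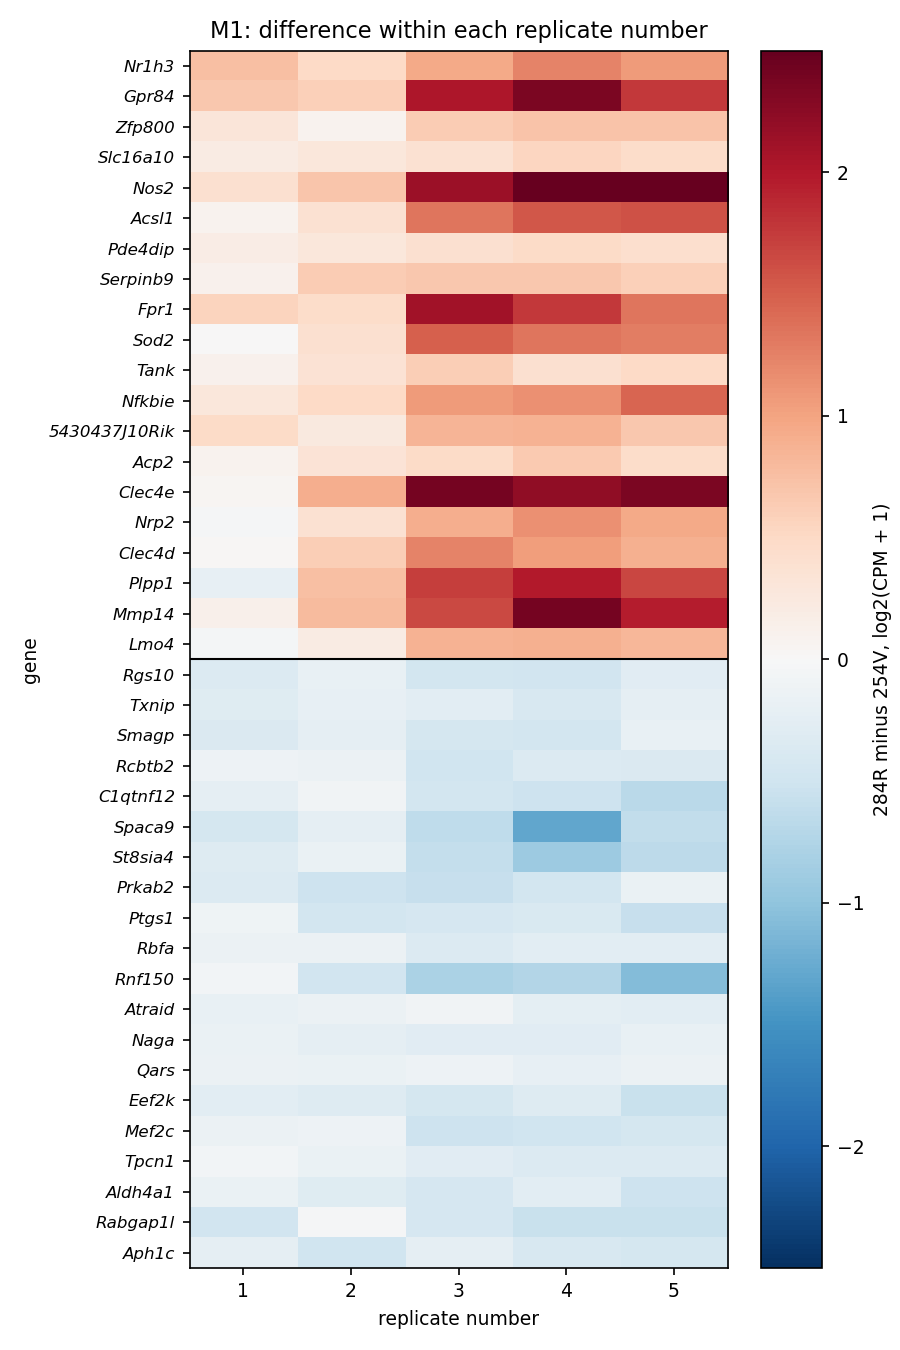
Difference of log2(CPM + 1) between the 284R and the 254V M1 library of each replicate number (columns) for the 20 higher and 20 lower genes with the smallest p under the replicate block (rows); 2 values lie past the colour limit of 2.5. Among the higher genes colours deepen in columns 3, 4 and 5. All 20 lower genes hold their sign in all 5 columns, as do the higher genes except *Nrp2*, *Plpp1* and *Lmo4*. The genes were picked by a fit to these same libraries.

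The same genotypes were set side by side without stimulus and with IL-4. Between 284R and 254V no gene was called in M0 or in M2, with or without the block. Before adjustment p was under 0.05 for 53 genes in M0 (0.411%) and 310 in M2 (2.40%), or 154 (1.19%) and 1216 (9.42%) with the block, and DESeq2 and limma-voom called 0 in each. For *Acsl1* the log2 fold change was 1.16 in M1, 0.09 (SE 0.19) in M0 and 0.04 (SE 0.19) in M2. For *Clec4e* it was 2.10 in M1, 0.38 (SE 0.42) in M0 and 0.57 (SE 0.51) in M2, and for *Acod1* 1.68, 0.78 (SE 0.48) and 0.74 (SE 0.50). *Nos2* was at or under 0.0879 CPM in every M0 library of these genotypes. Whether the difference in M1 was unlike that in M0 was tested directly, and no gene was called (217 with p under 0.05 before adjustment, DESeq2 and limma-voom 0), and no gene was called against M2 (328 with p under 0.05 before adjustment, DESeq2 and limma-voom 0). Without 284R M1 replicate 1 there was 1 call against M0 and 4 against M2. With the block 1 gene was called against M0 (0.00775%, with 740 or 5.73% under 0.05 before adjustment) and 3 against M2 (0.0232%, with 1120 or 8.68%). *Nr1h3* was called against both M0 (0.86, SE 0.13, adjusted p = 0.00187) and M2 (0.97, SE 0.13, adjusted p = 0.000347), and *Nlrc4* and *Tpx2* against M2 (edgeR quasi-likelihood). In M0 *Nr1h3* was at 22.04 to 35.4 CPM in 284R and 19.7 to 29.3 CPM in 254V.

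**Figure D5:**
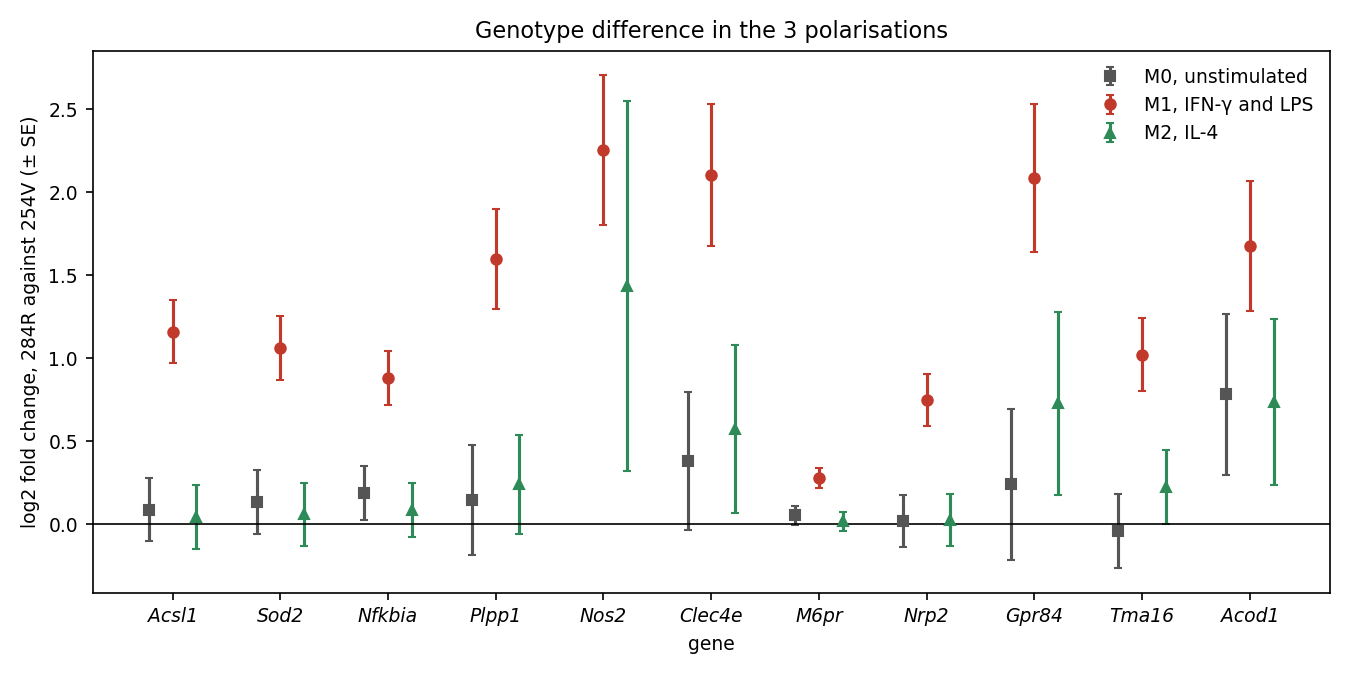
Log2 fold change of 284R against 254V (y axis, points with SE bars) for 11 genes (x axis) in M0, M1 and M2 macrophages, without the block. The M1 point is the highest for every gene; the M0 point of *Nos2*, where libraries held hardly a read, is not drawn.

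*Lacc1* itself had 396, 263, 218, 584 and 553 CPM in 284R M1 and 542, 545, 537, 597 and 533 CPM in 254V M1. The 3 low libraries of 284R are replicates 1, 2 and 3, a different set from the replicates in which the called genes were high. Its log2 fold change was -0.45 (SE 0.23, edgeR quasi-likelihood adjusted p = 0.831). The variants change the protein and counts per gene do not show them, so *Lacc1* checks no genotype label. *Slc9a9*, an endosomal sodium-proton exchanger, had 45.6, 52.1, 35.6, 26.0 and 26.4 CPM in 284R and 53.5, 69.8, 35.1, 5.25 and 6.00 CPM in 254V, where replicates 4 and 5 of 254V lay within the 4.89 to 7.40 CPM of the 254I libraries. *Mid1*, *Rap1gap* and *Mpp7* had log2 fold changes of 0.58 (SE 0.38), -0.01 (SE 0.25) and -0.40 (SE 0.27), and none passed either fit. Of 34 genes that the study listed between p.284R and p.254I, 2 were called here, *Nos2* and *Gpr84*, beside 0.0775% of all genes. With the block 18 were called, 17 of them higher, beside 2.52% of all genes. That list was drawn from the same 284R libraries, so it is not independent evidence of direction.

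Markers of other cells were read in the same libraries. The 12 neutrophil and granulocyte genes summed to 48.0 to 141 CPM in 284R and 64.1 to 102 CPM in 254V, and 284R replicates 3, 4 and 5, where the called genes were high, had 81.9, 50.3 and 48.0 CPM. *Ly6g*, *Elane* and *Retnlg* stayed under 1 CPM. Others of the list were plainly read, with *S100a9* at 18.4 to 51.7 CPM in 284R and 23 to 37.7 CPM in 254V. *S100a8* was at 10.3 to 28.2 and 12.5 to 19.6 CPM, and *Ngp* at 8.21 to 35.3 and 13.1 to 26 CPM. The 10 dendritic cell genes summed to 342, 450, 223, 239 and 270 CPM in 284R replicates 1 to 5 and to 316 to 429 CPM in 254V, so that replicates 3, 4 and 5 lay below every 254V library. Most of it was *Clec9a*, and *Flt3* stayed under 1 CPM. *Batf3* was at 12.6 to 16.9 CPM in 284R and 15 to 23.9 CPM in 254V, and *Xcr1* at 7.36 to 9.92 and 7.18 to 10.2 CPM. The 12 B and T cell genes summed to 13.3 to 19.5 and 16.2 to 20.7 CPM, mostly *Cd4* and *Cd79b*, with 284R replicates 4 and 5 lowest at 13.9 and 13.3 CPM. The 15 proliferation genes summed to 663, 1034, 559, 528 and 596 CPM in 284R and to 603 to 929 CPM in 254V, where replicates 3, 4 and 5 of 284R again lay below all of 254V. The part of these shifts in the genotype differences was not tested. Mast cell genes (8) and erythroid and megakaryocyte genes (9) summed to at most 0.902 and 1.40 CPM, with the globins and *Alas2* at 0, and the 8 stromal and endothelial genes to 16.96 to 33.1 and 14.5 to 29.8 CPM. Neither the 6 lists of other cells nor the proliferation list held a gene called in either fit.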

How the data were processed

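RNA of 45 macrophage cultures was sequenced with single-end reads after stranded mRNA library preparation. The deposited values were raw counts per gene for 29307 genes, which the authors made from trimmed reads aligned to mm10; the submitters' processing notes name FastQC, Trim Galore, HISAT2 and limma, whereas the series' design text names Cutadapt and STAR. The counting tool, its annotation and its use of strand are not given in the sources used here. Symbols came from GENCODE vM21 (29081 of 29307 IDs), and promoters from RefSeq (GRCm38.p6).

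Counts were scaled by TMM, filtered by expression over 9 groups (12905 genes) and fitted with all 45 libraries in edgeR 4.0.16 (robust quasi-likelihood, R 4.3.3), with Benjamini-Hochberg adjustment over all genes at 0.05. Libraries sharing a replicate number were correlated in their deviations from group means over 9522 genes. The correlations were 0.316 to 0.805 in M1 and 0.360 to 0.798 in M0, with 5 of 5 pairs over 0.1 in each. In M2 they were -0.335 to 0.678, with 4 of 5 pairs over 0.1. The numbers thus paired the M1 and M0 libraries, and the M2 libraries less evenly. No source used here says what the replicate number marks. Named genes were *Acod1*, *Nfkbia* and *Clec4e*, the genes called (up to 10 in each direction, with the 5 nearest where fewer were called), *Lacc1*, *Slc9a9*, *Mid1*, *Rap1gap* and *Mpp7*, and from each of 33 lists the called genes or the 2 nearest. The comparison and lists were chosen with earlier results of these data known. Alternatives were DESeq2 1.42.0, limma-voom (limma 3.58.1), other scaling, filters, libraries and blocks, and leaving out each library. Each SE of an edgeR log2 fold change came from the quasi-likelihood fit, which includes the spread between libraries. Values after ± are SDs between the 5 libraries of a group. Scripts were tested on simulated data. Some items withheld from this account are not reported here.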

Additional observations from a re-analysis of the deposited data

Results flagged for a closer look

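In 6 of 144 groups of 5 libraries (4.17%) 1 library stood apart from the others by Dixon's test, where chance gives about 1 in 20. In 254V M1, library 2 was lowest for *Nos2* (4.92 CPM, others 17.8 to 20.9) and *Ripk2* (33.9 CPM, others 52.4 to 55.2) and highest for *Aurkb*, a mitotic kinase (31.2 CPM, others 16.0 to 19.2), and library 4 was highest for *Lacc1* (597 CPM, others 533 to 545). In 284R M1, library 1 was highest for *Lrrc39* (0.594 CPM, others 0.182 to 0.259) and library 2 for *Cdh5*, an endothelial cadherin (1.54 CPM, others 0.304 to 0.661).

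With the replicate block the genotype difference in M1 was unlike that in another polarization for 3 genes, tested as an interaction. For *Nr1h3* it was larger by 0.862 on the log2 scale than in M0 and by 0.969 than in M2. For *Nlrc4* and *Tpx2*, a spindle protein, the interaction with M2 was 0.514 and 0.633, and the signs were opposed. Without the block *Nlrc4* had a log2 fold change of 0.27 in M1 and -0.23 in M2, and *Tpx2* had 0.21 in M1 and -0.43 in M2, the larger of its pair. *Tpx2* was not called in M1 in either fit. The numbers paired the M2 libraries less evenly than the M1 libraries, and without the block none of these interactions was called.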

How the results depend on the processing

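Of 2273 values of single genes under 32 settings, 1896 kept their direction and side of the threshold, 121 lost a call, 226 gained one and 30 changed sign. The count of genes called in M1, 10 as reported, was 21 with DESeq2 and 0 with limma-voom. It stayed 0 in limma-voom with a random term for each genotype and replicate number. It was 4 without the low-count filter, and 0 with only the 10 libraries compared or the 15 M1 libraries. With the replicate block it was 325, or 502 over the 10 libraries alone and 599 there by limma-voom. Leaving out 1 library gave 0 to 67 without the block. With it, leaving out 284R replicates 1 to 5 gave 633, 306, 146, 59 and 122, and 254V replicates 1 to 5 gave 323, 262, 91, 99 and 136. The list genes called, 6 as reported, were 0 by both limma-voom fits and with the 10 or 15 libraries, 3 without the filter, 58 with the replicate block, 59 and 95 with it over the 10 libraries (edgeR and limma-voom), and 0 to 24 with 1 library left out. With the block and 1 library left out they were 82, 58, 27, 15 and 25 (284R) and 51, 50, 21, 24 and 26 (254V). Interaction calls, 0 as reported, were 1 (M0) and 3 (M2) with the block, and 0 to 1 and 0 to 4 with 1 library left out. The block changed no other call count, M0 and M2 staying at 0. The causes were not tested.

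Some log2 fold changes near 0 changed sign. *Rap1gap* was 0.018 by limma-voom and 0.010 there with a random term for each genotype and replicate number. With the replicate block over the 10 libraries it was 0.0023 and 0.020 (edgeR and limma-voom). With 1 library left out and no block, the ranges were -0.24 to 0.10 for *Rap1gap*, -0.15 to 0.55 for *Slc9a9*, -1.04 to 0.062 for *Prtn3*, -0.076 to 0.32 for *Kit* and -1.11 to 0.30 for *Gata2*. With the block and 1 library left out, the values that changed sign were 0.016, 0.10 and 0.23 for *Rap1gap*, 0.11 for *Prtn3*, -0.10 and -0.13 for *Kit*, and 0.17, 0.40, 0.57 and 0.73 for *Gata2*. At 17.2 to 36.9 reads per CPM, genes under 1 CPM rest on few reads.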
